A study of Homo sapiens with 6 samples.

Results

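The genes described here are 10 of the 25702 genes in a deposited expression table, namely 6 matrix metalloproteinases (MMP15, MMP14, MMP16, MMP24, MMP2 and MMP9) and the 4 tissue inhibitors of metalloproteinases (TIMP1, TIMP2, TIMP3 and TIMP4). They were chosen by gene symbol, matched to the table through Entrez gene numbers, with the outcome of the siGLI1 against siNT2 comparison already known. Their values in that comparison are therefore given as a description and support no claim about the family. RNA sequencing covered 6 libraries of RMS13, an established human rhabdomyosarcoma line grown in RPMI medium with fetal bovine serum. The siGLI1 group (3 libraries) received a small interfering RNA (siRNA) against the transcription factor gene GLI1, and the siNT2 group (3 libraries) a non-targeting siRNA, each for 72 h. Apart from the siRNA the labels give no difference between the groups, and they do not say whether replicates were separate cultures, so the spread behind every p-value is that of these libraries alone and may be technical.

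Matrix metalloproteinases are zinc-dependent enzymes that cut collagens, other matrix proteins and cell surface proteins, and are made as inactive precursors. The membrane-type enzymes stay anchored at the cell surface, where MMP14 activates the precursor of MMP2 in a complex that uses TIMP2 as a bridge, while an excess of TIMP2 blocks the enzyme. GLI1 is a zinc finger transcription factor at the end of the Hedgehog pathway, which is active in many rhabdomyosarcomas.

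Recovered reads ranged from 13673977 to 18947614 per library. The target itself checked the labels, since GLI1 read 11962, 17837 and 12774 normalised counts in siNT2 and fell to 579.9, 905.8 and 1274 in siGLI1, a mean of 6.48% of siNT2. Of 10 markers of skeletal muscle and rhabdomyosarcoma, 7 had a mean of 10 or more, with MYOD1 at 15135 to 21238 in siNT2 and 14204 to 22293 in siGLI1. MYF5, MYF6 and PAX7 had at most 3 reads in every library. The summed markers of other cell types were low, at 1030 to 1421 in siNT2 and 1071 to 1213 in siGLI1 for fibroblasts, 280.7 to 335.7 and 374.7 to 515.6 for leukocytes, 140.6 to 156.2 and 215.7 to 254.8 for endothelium, and 136.4 to 173.4 and 103.7 to 109.6 for epithelium. The leukocyte and endothelial sums were higher in siGLI1 and the epithelial sum lower, none overlapping between the groups. The leukocyte gene PTPRC, the endothelial gene ERG and the epithelial genes CDH1, KRT5 and KRT19 had at most 3 reads in every library. Other markers were expressed or rose, among them PECAM1 (endothelial, 11 to 86.3, log2 fold change 2.96, adjusted p = 0.00226, limma), ITGAM (leukocyte, 10.5 to 46.7, 1.95, adjusted p = 0.0189), LUM (fibroblast, 11.2 to 22.6, 0.96, adjusted p = 0.0484), MPO (leukocyte, 207.5 to 267.5, adjusted p = 0.133) and KRT18 (epithelial, 60.4 to 51.6, adjusted p = 0.531). The fibroblast gene COL1A2 rose from 4.43 to 32.9 (log2 fold change 2.79, adjusted p = 0.00593, limma). For 4 of the 6 fibroblast markers tested the adjusted p was not under 0.05. Of the muscle markers DES and CHRNA1 rose, by 0.97 and 0.62 (adjusted p = 0.0153 and 0.0112). The part of these markers in the results on the members was not tested.

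Expression values are normalised read counts, in which the reads of a gene were scaled by the size factor of the library. A fold change is the difference siGLI1 minus siNT2 on the log2(count + 1) scale with its standard error (SE) from limma, fitted to all 15622 genes with a mean count of 10 or more. A gene was called at a Benjamini-Hochberg adjusted p under 0.05 over all of them. By this rule 15.2% of genes were called, 7.21% higher and 8.0% lower, and for 36.2% the groups did not overlap. Of the 10 members, 8 passed the filter on low counts, and MMP9 and TIMP4 did not. Among the 8, MMP15 was called lower, TIMP2 was called higher and 6 were not called, and the groups did not overlap for MMP15 and TIMP2. Their median log2 fold change was 0.05, against -0.01 over all genes tested, and nothing is read from these counts because the members were picked with the comparison known.

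**Figure D1:**
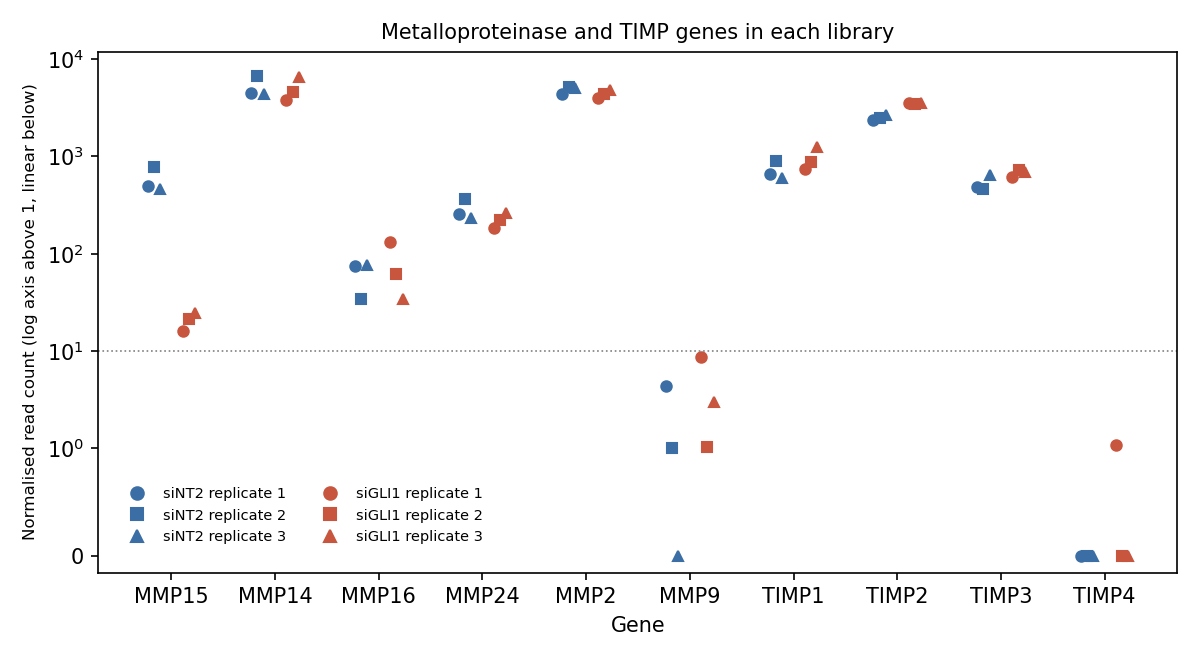
Normalised read counts of the 10 genes in each of the 6 libraries, on a log axis above 1 and a linear axis below it, with the siNT2 libraries in blue, the siGLI1 libraries in red, marker shapes for replicates and the filter at 10 as a dotted line. The groups stand apart for MMP15 (467.3 to 775.9 against 16.2 to 24.7) and TIMP2 (2362 to 2664 against 3438 to 3583).

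MMP15 (Entrez gene 4324, chromosome 16), which encodes the membrane-anchored MT2-MMP, fell to 3.58% of its siNT2 mean. In siNT2 its normalised counts were 497.4, 775.9 and 467.3, and in siGLI1 they were 16.2, 21.5 and 24.7. The lowest siNT2 library was far above the highest siGLI1 library. The means were 580.2 ± 170 and 20.8 ± 4.29 (SD, n = 3 per group), and the log2 fold change was -4.72 (SE 0.25, 95% interval -5.31 to -4.13). This was the 6th largest decrease of all genes tested. Without 1 library at a time it ranged from -4.86 to -4.49, and with a pseudocount of 8 it was -4.33. In bulk RNA, fewer cells that express a gene and less RNA per cell cannot be told apart.

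The promoters of the membrane-type members are shown because MMP15 is the member that fell while MMP14 and MMP24 were not called. Each run covers 250 bases before to 50 bases after the annotated start in RefSeq (build GRCh38.p14), at chr16:58025504-58025803 for MMP15, chr14:22836335-22836634 for MMP14 and chr20:35226440-35226739 for MMP24, all on the plus strand and written 5′ to 3′. Capitals mark a match to GACCNCCCA, the GLI consensus GACCACCCA with any base at position 5.
MMP15: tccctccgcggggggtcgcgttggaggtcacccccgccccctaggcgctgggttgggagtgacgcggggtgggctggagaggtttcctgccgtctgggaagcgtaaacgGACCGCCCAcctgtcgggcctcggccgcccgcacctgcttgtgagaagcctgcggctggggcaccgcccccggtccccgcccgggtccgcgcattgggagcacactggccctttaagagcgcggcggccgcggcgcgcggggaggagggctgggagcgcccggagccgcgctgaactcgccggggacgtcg
MMP14: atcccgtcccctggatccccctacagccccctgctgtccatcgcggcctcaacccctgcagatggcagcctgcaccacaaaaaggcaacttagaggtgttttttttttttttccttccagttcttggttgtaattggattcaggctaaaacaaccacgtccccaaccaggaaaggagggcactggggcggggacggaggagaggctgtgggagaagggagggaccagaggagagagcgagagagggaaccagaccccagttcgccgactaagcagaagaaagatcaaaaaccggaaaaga
MMP24: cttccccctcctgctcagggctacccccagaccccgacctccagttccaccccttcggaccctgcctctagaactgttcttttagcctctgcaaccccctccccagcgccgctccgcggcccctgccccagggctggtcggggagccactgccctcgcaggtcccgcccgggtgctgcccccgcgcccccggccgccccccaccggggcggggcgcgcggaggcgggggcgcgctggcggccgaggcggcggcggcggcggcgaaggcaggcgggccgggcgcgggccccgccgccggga

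Promoter sequences were found for 6 members (MMP15, MMP14, MMP24, TIMP1, TIMP3 and TIMP4), and those of MMP16, MMP2, MMP9 and TIMP2 were not used here. On either strand, 0 of the 6 held the GLI consensus GACCACCCA, which is in 0.249% of the 27305 promoters in the table. The looser GACCNCCCA, written down after the MMP15 promoter had been read, matched 1 of the 6, that of MMP15, on the plus strand from 141 to 133 bases before the start. Its letters are GACCGCCCA, which differ from the consensus by A5G, counted from 1 at the 5′ end. This looser motif was in 1.04% of all promoters and in 1.3% of those of tested genes. Of the tested genes with it 8.72% were called lower, and of those without it 8.15%. The AP-1 motif TGANTCA, often described in metalloproteinase promoters, was in 0 of the 6. It was in 7.76% of all promoters and in 4.57% of those of tested genes. The GC box GGGCGG was in all 6, in 44.6% of all promoters and in 68% of those of tested genes. The MMP15 promoter had 5 copies of the GC box, of which 1 lies inside the GACCGCCCA match. A match is only a description of the letters in this window.

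In the 3′ untranslated region (UTR), MMP15 carried 1 copy of the heptamer GCACCTC, a word picked from earlier results of these data because genes with it were called lower more often. It is shown with 11 bases on each side, the heptamer in capitals, from the GENCODE release 29 transcript ENST00000219271, where it starts at base 326 of a 3′ UTR of 1455 bases.
MMP15 heptamer: ttggaagagcaGCACCTCctcagcctgaa

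Of tested genes with an annotated 3′ UTR, 9.45% held at least 1 copy. Among them the share called lower was 17.3% with 1 copy and 22.9% with at least 2, against 7.1% of tested genes with 0 copies. The other 9 members had 0 copies in the longest annotated 3′ UTR. The siRNA sequence was not used here, and the part of the heptamer in the fall of MMP15 was not tested.

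The genes on either side of MMP15 did not share its size of change. USB1, which encodes an RNA-processing exonuclease and lies next to MMP15, had means of 1722 and 1107, a log2 fold change of -0.64 (adjusted p = 0.025, limma). Its call was lost without siNT2 replicate 1, 2 or 3 or siGLI1 replicate 1 or 2, and USB1 was named after its values were seen. The other 3 of the 4 nearest tested genes were not called, with log2 fold changes of -0.09 for ZNF319, 0.09 for CFAP20 and 0.01 for CSNK2A2. No annotated gene overlapped the exons of MMP15 in GENCODE release 29.

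The 5 genes whose log2 counts followed MMP15 most closely over the 6 libraries, out of 12657 with a mean of 50 or more, were LOXL4, SLC16A3, TMED9, FAM136A and LAMTOR1. Pearson's r was 0.9995 for LOXL4, which encodes a lysyl oxidase-like enzyme that crosslinks collagen, and 0.9992 for SLC16A3, a lactate transporter gene. It was 0.9988 for TMED9, which encodes a cargo receptor of the early secretory pathway, 0.9979 for FAM136A and 0.9977 for LAMTOR1, which encodes a lysosomal scaffold protein. Among the members, r with MMP15 was -0.98 for TIMP2, -0.77 for TIMP3, -0.48 for TIMP1 and -0.24 for MMP16. It was 0.66 for MMP24, 0.62 for MMP2 and 0.23 for MMP14. The 6 libraries form 2 groups, so these values mostly restate the difference between the groups, and they are given with no test. LOXL4 read 460.1, 537.5 and 472.9 in siNT2 and 184.7, 195.3 and 204.4 in siGLI1, a smaller fold than that of MMP15. TMED9 and LAMTOR1 carried 1 GCACCTC heptamer each, and LOXL4, SLC16A3 and FAM136A carried 0.

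MMP14 (Entrez gene 4323, chromosome 14), which encodes MT1-MMP, was the most abundant member per kb of exon and was not called. In siNT2 its normalised counts were 4531, 6783 and 4361, and in siGLI1 they were 3808, 4642 and 6517. The groups overlapped, with siNT2 replicate 2 and siGLI1 replicate 3 high. The means were 5225 ± 1352 and 4989 ± 1388 (SD, n = 3 per group), with a log2 fold change of -0.07 (SE 0.24, 95% interval -0.64 to 0.49). The sign turned with the correction for GC content (0.11) and without siNT2 replicate 2 (0.13) or siGLI1 replicate 1 (0.10).

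MMP24 (Entrez gene 10893, chromosome 20), which encodes the MT5-MMP known from neurons, read 257, 363.1 and 230.5 in siNT2 and 182.5, 221.8 and 262.7 in siGLI1. The groups overlapped because siGLI1 replicate 3 lay above 2 of the siNT2 libraries. Its log2 fold change was -0.34 (SE 0.22, 95% interval -0.85 to 0.18) and it was not called. Of its exon bases 18.1% are shared with MMP24OS on the opposite strand in GENCODE release 29, and whether reads were counted by strand is not given in the sources used here, so the MMP24 count is uncertain.

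MMP16 (Entrez gene 4325, chromosome 8), which encodes MT3-MMP, was low and, of the 8 members tested, had the widest interval. It read 74.7, 34.5 and 76.6 in siNT2 and 131.8, 62.4 and 34.6 in siGLI1. The siGLI1 libraries held the highest value and also a value close to the lowest siNT2 value, so the groups overlapped. The log2 fold change of 0.17 had a 95% interval of -1.0 to 1.35, and it turned to -0.05 with the GC correction, to -0.20 without siNT2 replicate 2 and to -0.32 without siGLI1 replicate 1.

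Counts per kb of exon allow levels of different genes to be set side by side. By this measure MMP14 made up most of the signal of the 4 membrane-type members in every library. The membrane-type genes MMP17 and MMP25 are not members and were left out of the sum. The share of MMP14 in the summed per-kb counts of the 4 members was 87, 87.2 and 87.4% in siNT2. In siGLI1 it was 94.7, 95.3 and 96.2%. The share of MMP15 was 8.39, 8.75 and 8.22% in siNT2 and 0.354, 0.387 and 0.32% in siGLI1. In siNT2, MMP15 was thus second among these 4 members, ahead of MMP24 (4.01 ± 0.144%, SD, n = 3). In siGLI1, MMP15 stood far below MMP24 (3.66 ± 0.327%, SD, n = 3). The sum of the 4 membrane-type members was 1606 ± 416 per kb in siNT2 and 1399 ± 378 in siGLI1 (SD, n = 3 per group), with overlapping groups.

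MMP2 (Entrez gene 4313, chromosome 16), the gelatinase that MMP14 activates, was abundant and was not called. Its counts were 4341, 5173 and 5034 in siNT2 and 4003, 4361 and 4791 in siGLI1. The groups overlapped, and the lowest value was in siGLI1 and the highest in siNT2. The log2 fold change was -0.14 (SE 0.13, 95% interval -0.45 to 0.16), and 0.002 with the GC correction. MMP9 (Entrez gene 4318, chromosome 20), the other gelatinase, read 4.39, 1.01 and 0 in siNT2 and 8.64, 1.02 and 2.96 in siGLI1. A count of 0 allows a floor of 3 reads (2.39 to 3.29 in normalised units, counting error only). MMP9 was above this floor in siNT2 replicate 1 and siGLI1 replicate 1, and at or below it in the other libraries. Its mean was under the filter, so no change in MMP9 is read from these counts.

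The order of the members per kb of exon changed at the position of MMP15. In siNT2 it ran from MMP14 (1400 ± 362, SD, n = 3) through MMP2 (1024 ± 94.2), TIMP2 (612.3 ± 37.9), TIMP1 (492.8 ± 112), MMP15 (136.5 ± 40), TIMP3 (114.9 ± 21.1) and MMP24 (64.2 ± 15.9) to MMP16 (5.36 ± 2.06), with MMP9 and TIMP4 near 0. The ranges of TIMP2 and TIMP1 overlapped, as did those of MMP15 and TIMP3, and the other neighbours in this order did not overlap. In siGLI1 the order was MMP14 (1337 ± 372, SD, n = 3), MMP2 (925.5 ± 83.2), TIMP2 (863.9 ± 18.3), TIMP1 (654 ± 178), TIMP3 (147.9 ± 12.8), MMP24 (50.4 ± 9.09), MMP16 (6.59 ± 4.33) and MMP15 (4.89 ± 1.01). Here MMP2 overlapped TIMP2, TIMP2 overlapped TIMP1, and MMP15 overlapped MMP16, so MMP15 had joined MMP16 as the lowest of the 8 members tested.

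**Figure D2:**
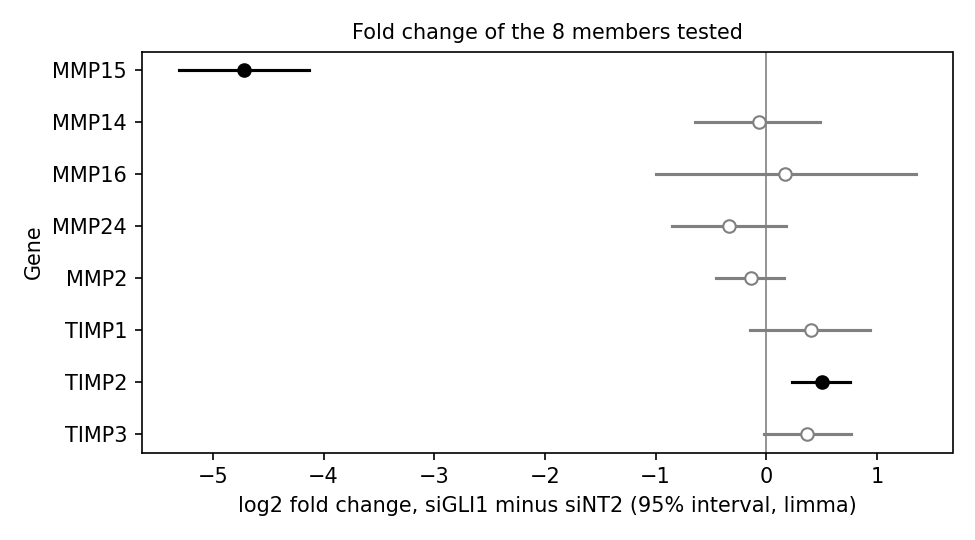
Log2 fold changes (siGLI1 minus siNT2) of the 8 members tested, with 95% intervals from limma, filled black where the gene was called and open grey where it was not. MMP15 at -4.72 stands away from the other members, which lie between -0.34 and 0.50.

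TIMP2 (Entrez gene 7077, chromosome 17), the inhibitor that also bridges MMP14 and the MMP2 precursor, rose to 1.41 times its siNT2 mean. Its counts were 2362, 2459 and 2664 in siNT2 and 3540, 3438 and 3583 in siGLI1, and every siGLI1 library was above every siNT2 library. The means were 2495 ± 154 and 3520 ± 74.5 (SD, n = 3 per group), with a log2 fold change of 0.50 (SE 0.11, 95% interval 0.23 to 0.76). The call was kept without siGLI1 replicate 3, and was lost without siNT2 replicate 1, 2 or 3 or siGLI1 replicate 1 or 2, while the fold change stayed between 0.46 and 0.55. Genes on the opposite strand (AC022966.1) and on the same strand (CEP295NL) share 9.0% and 4.9% of the TIMP2 exon bases, and reads from them could add to its count.

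TIMP1 (Entrez gene 7076, X chromosome), a broad secreted inhibitor that binds MMP14 poorly, was not called. It read 653.4, 904.7 and 598.9 in siNT2 and 743, 876.1 and 1243 in siGLI1. The groups overlapped, and siGLI1 replicate 3 was the highest of the 6. The log2 fold change was 0.40 (SE 0.24, 95% interval -0.15 to 0.94), and with the GC correction it was 0.57 and called higher.

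TIMP3 (Entrez gene 7078, chromosome 22), the inhibitor that binds to the matrix and also blocks ADAM proteases, read 487.5, 459.4 and 639.5 in siNT2 and 615.6, 729.9 and 696.3 in siGLI1. Only siNT2 replicate 3 reached into the siGLI1 range. Its log2 fold change of 0.37 (SE 0.17, 95% interval -0.02 to 0.77) was not called. TIMP4 (Entrez gene 7079, chromosome 3) had 1 read in siGLI1 replicate 1 and 0 in the other 5 libraries, so it was not detectable at this depth.

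The TIMP genes share a position that the choice of members did not use, since 3 of them lie inside synapsin genes on the opposite strand. SYN1 surrounds TIMP1 and SYN3 surrounds TIMP3 with 0 shared exon bases, and SYN2 shares 10.3% of the exon bases of TIMP4. SYN1 read 24.2, 34.5 and 15.9 in siNT2 and 10.8, 19.4 and 16.8 in siGLI1, and SYN3 stayed at or below 5.49 in every library, so the host genes were far lower than TIMP1 and TIMP3. SYN2 had at most 1.08 normalised counts in any library.

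Because MMP14, TIMP2 and MMP2 act together at the cell surface, their per-kb ratios are given by library. The MMP2 to TIMP2 ratio was 1.58, 1.81 and 1.63 in siNT2 and 0.973, 1.09 and 1.15 in siGLI1, and the groups did not overlap. The MMP14 to TIMP2 ratio was 2.09, 3.01 and 1.79 in siNT2 and 1.17, 1.47 and 1.99 in siGLI1. Here siGLI1 replicate 3 lay above siNT2 replicate 3, so the groups overlapped. The summed per-kb counts of the 6 metalloproteinase members over those of the 4 TIMP genes were 2.04, 2.4 and 1.99 in siNT2 and 1.27, 1.39 and 1.5 in siGLI1. The ratios were built from the members' own values in this comparison and carry no test, and they count RNA, not active enzyme.

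**Figure D3:**
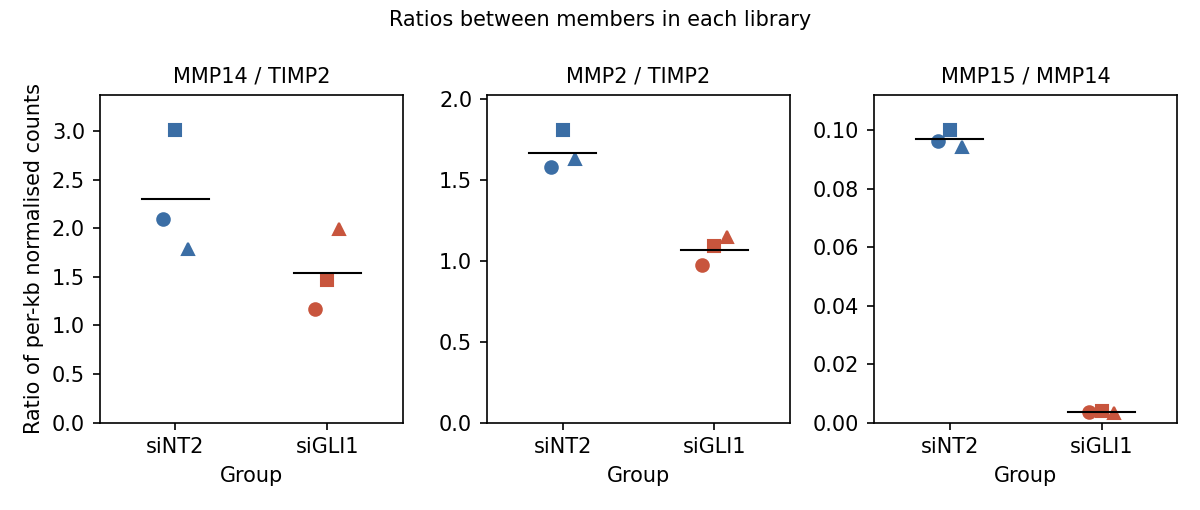
Ratios of per-kb normalised counts between members in each library (points, shapes for replicates) with the group mean as a line, every axis starting at 0. The MMP15 to MMP14 ratio lies between 0.0941 and 0.1 in siNT2 and between 0.00333 and 0.00406 in siGLI1.

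Within each group some members deviated together from library to library. In siNT2 the SD of MMP15 was 29.3% of its mean and that of MMP14 25.9%, and the SD of the MMP15 to MMP14 ratio was 3.31% of its mean. In siGLI1 the SD was 20.6% of the mean for MMP15 and 9.92% for the ratio. The members' GC content ran with this pattern. Of the 8 members tested, the 4 richest in GC were MMP15 at 66.0%, MMP24 at 60.6%, MMP14 at 58.9% and TIMP1 at 57.9%. All 4 were above their group mean in siNT2 replicate 2, by 0.35 to 0.46 on the log2 scale. In siGLI1 replicate 3 they were above it by 0.26 to 0.42. MMP16, the poorest in GC at 36.4%, deviated the other way, by -0.74 and -0.91 in the same libraries, and TIMP2 at 53.7% by -0.02 and 0.03. Over 14438 tested genes with a GC value, the deviation was rank-correlated with GC content, with Spearman's rho at 0.69 in siNT2 replicate 2 and 0.74 in siGLI1 replicate 3, and between -0.69 and -0.31 in the other 4 libraries. Genes are not independent replicates, so these correlations are descriptions. Removing the GC trend left the MMP15 fold change at -4.44.

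**Figure D4:**
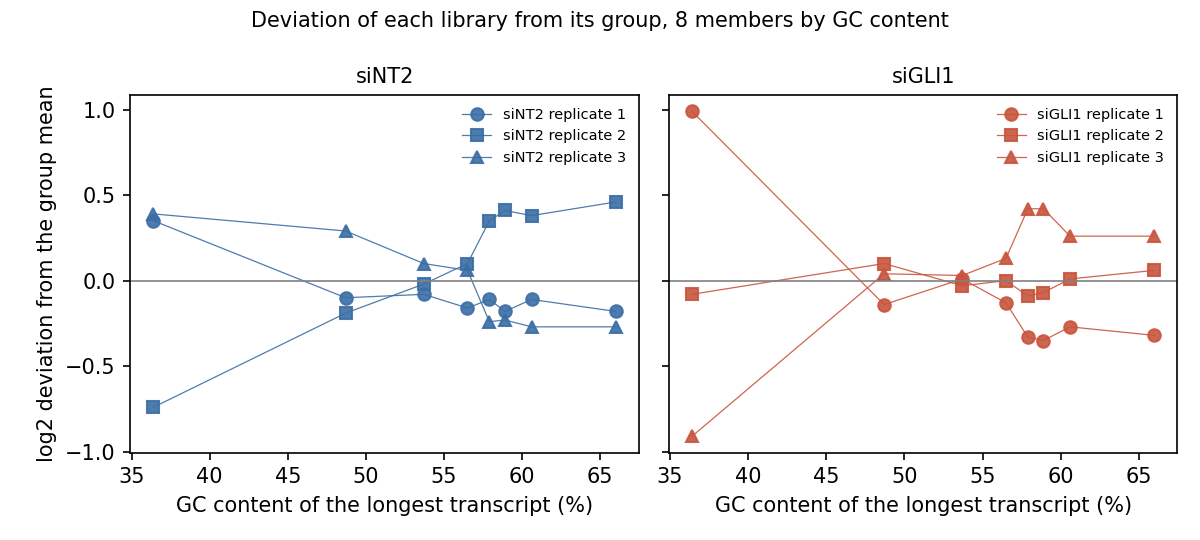
Log2 deviation of each library from its group mean (vertical) against the GC content of the longest transcript in percent (horizontal) for the 8 members tested, siNT2 on the left and siGLI1 on the right, with points of 1 library joined by a line. In siNT2 replicate 2 and siGLI1 replicate 3, MMP16 (36.4% GC) at the left end lies below 0 and MMP15 (66.0% GC) at the right end lies above it.

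In the 3 siGLI1 libraries the order of MMP15 (16.2, 21.5 and 24.7) was that of GLI1 (579.9, 905.8 and 1274). The same order held for 5 of the 8 members tested, among them MMP14, which was not called, so the order does not set MMP15 apart.

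Genes related to the members were taken from 8 lists, whose counts stand beside 7.21% higher and 8.0% lower over all genes tested (15.2% in all). Of 17 other metalloproteinase genes, 6 were tested, and 1 rose and 1 fell. MMP11, which encodes stromelysin-3, a furin-activated enzyme known from tumour stroma, fell from 197.3 ± 37.9 to 23.9 ± 3.89 (SD, n = 3 in each group), with 227.3, 209.9 and 154.7 in siNT2 and 19.4, 25.6 and 26.7 in siGLI1. Its log2 fold change was -2.99 (SE 0.23, adjusted p = 0.000514, limma), the call held without any 1 library, and its 3′ UTR held 0 heptamers. MMP19, an enzyme of basement membrane breakdown, rose from 23.7 ± 2.76 to 105.5 ± 28.7 (SD, n = 3 in each group), by 2.07 on the log2 scale (SE 0.26, adjusted p = 0.00294, limma), a call that also held without any 1 library. The membrane-type genes MMP17 and MMP25 had log2 fold changes of -0.14 and -0.54 (adjusted p = 0.851 and 0.403, limma), and the stromelysin gene MMP3 one of -0.04 at a mean near the filter. The 3′ UTR of MMP25 held 2 heptamers. MMP23B had -0.57 (adjusted p = 0.463), an uncertain value because a near-identical copy lies beside it. These 4 genes fall outside the rule for named genes and were named after their values were seen. The other 11 were under the filter, and the list median was -0.34.

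Of 13 ADAM sheddase genes, which cut surface proteins such as growth factor precursors, 10 were tested and 0 were called by limma or edgeR. At an unadjusted p under 0.05 limma gave 3, and DESeq2 called 1 higher. The list median was -0.32. The log2 fold change was 0.83 for ADAM17, the best-known sheddase (adjusted p = 0.0879, limma), and 0.69 for ADAM10 (adjusted p = 0.235, limma). Lower values were -0.45 for ADAM23 and -0.33 for ADAM19 (adjusted p = 0.0785 and 0.114, limma). ADAM9 was also lower, at -0.86 (adjusted p = 0.199, limma). All of these ADAM genes were named after their values were seen. Without siGLI1 replicate 3 limma called 2 of the list higher, and with the GC correction 1 higher and 2 lower.

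Among 19 tested ADAMTS and ADAMTS-like genes, whose products are secreted and act on proteoglycans and fibrillin, 4 rose and 1 fell, with a list median of -0.26. ADAMTS5, an aggrecan- and versican-cleaving enzyme, rose by 1.84 (adjusted p = 0.00294, limma), from 688.5 ± 168 to 2457 ± 517 (SD, n = 3 in each group). ADAMTSL1 rose by 1.13 (adjusted p = 0.00485), and its 3′ UTR held 1 heptamer. ADAMTS6 rose by 0.92 (adjusted p = 0.03), a call that held only without siGLI1 replicate 3 when 1 library was left out. ADAMTS15, another versican-cleaving enzyme, fell by 1.49 (adjusted p = 0.00264). With the GC correction 8 of the list were higher and 3 lower, and without siNT2 replicate 1 or 3 or siGLI1 replicate 2 there were 2 higher and 1 lower.

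Of 19 tested genes for activation, inhibition and clearance of metalloproteinases, 3 rose and 1 fell, with a median of -0.08. SPOCK2, a proteoglycan of the testican family that affects membrane-type enzymes, fell by 1.61 (adjusted p = 0.00538, limma), from 618.3 ± 156 to 199.7 ± 34 (SD, n = 3 in each group). PCSK6, a proprotein convertase, rose by 1.26 (adjusted p = 0.0153), a call lost without siGLI1 replicate 2. The tetraspanin genes CD63 and TSPAN12 rose by 0.89 and 1.11 (adjusted p = 0.0163 and 0.0221). The CD63 call was lost without siNT2 replicate 1 or 3 or siGLI1 replicate 2, and that of TSPAN12 without siNT2 replicate 1 or siGLI1 replicate 1 or 2. With the GC correction 6 of the list were higher and 3 lower, without siNT2 replicate 1 there was 1 of each, and without siGLI1 replicate 2 there were 0 higher and 1 lower.

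In the plasminogen activator system, a serine protease cascade that also degrades matrix, 9 genes were tested, of which 2 rose and 1 fell (median 0.12). PLAU, the urokinase gene, read 920.2, 801.2 and 857.2 in siNT2 and 1799, 1718 and 1726 in siGLI1, a log2 fold change of 1.02 (SE 0.12, adjusted p = 0.00244, limma). S100A10, a subunit of a plasminogen receptor, fell by 1.06 (adjusted p = 0.0461). edgeR did not make this call, nor did limma with the filter at a mean of 50 (adjusted p = 0.0512). When 1 library was left out, the call held only without siGLI1 replicate 3.

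Of 18 tested invadopodium components, the protrusions where MMP14 is delivered, 0 rose and 4 fell, with a median of 0.16. edgeR and DESeq2 also called 0 higher and 4 lower, and limma gave 4 at an unadjusted p under 0.05. The integrin gene ITGB3 fell by 4.43 (adjusted p = 9e-05, limma). FSCN1, which encodes the actin bundler fascin, fell by 1.75 (adjusted p = 0.0013), from 9292 ± 1504 to 2771 ± 469 (SD, n = 3 in each group). WIPF1, a partner of N-WASP, fell by 1.22 (adjusted p = 0.00879). SH3PXD2B, which encodes the adaptor TKS4, fell by 0.54 (adjusted p = 0.0226), and this call held only without siGLI1 replicate 3 when 1 library was left out. ITGB3 and FSCN1 carried 1 heptamer each. With the GC correction 3 of the list were higher and 5 lower.

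Among 20 tested matrix and surface substrates of these enzymes 6 rose and 4 fell, with a median of 0.09. The syndecan genes SDC4 and SDC1, whose products are shed by MMP14 and other proteases, fell by 2.26 and 1.97 (adjusted p = 0.000277 and 0.00162, limma). SDC4 went from 1039 ± 34.2 to 215.6 ± 9.82 (SD, n = 3 per group) and carried 2 heptamers. COL1A2 rose by 2.79 (adjusted p = 0.00593), from a siNT2 mean of 4.43 that is close to the floor of 3 reads, so a pseudocount of 8 in place of 1 lowered this value to 1.74. COL1A2 is also on the fibroblast marker list, whose summed level overlapped between the groups. The list gave 3 higher and 2 lower without siNT2 replicate 1, and 2 higher and 2 lower without siGLI1 replicate 2.

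Of 20 transcription factors known from metalloproteinase promoters 4 rose and 2 fell, with a median of 0.38. The PEA3 factor genes ETV4 and ETV5 fell by 1.32 and 1.05 (adjusted p = 0.00257 and 0.0159, limma). ETV5 carried 1 heptamer and ETV4 carried 0. The AP-1 gene FOSL1 rose by 1.05 and the repressor gene SNAI1 by 0.81 (adjusted p = 0.0265 and 0.0281). The calls of ETV5, FOSL1 and SNAI1 were each lost without siNT2 replicate 1 or 3 or siGLI1 replicate 2. The list had 0 higher and 1 lower without siNT2 replicate 1 or siGLI1 replicate 2, 1 of each without siNT2 replicate 3, and 10 higher and 2 lower with the GC correction.

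**Figure D5:**
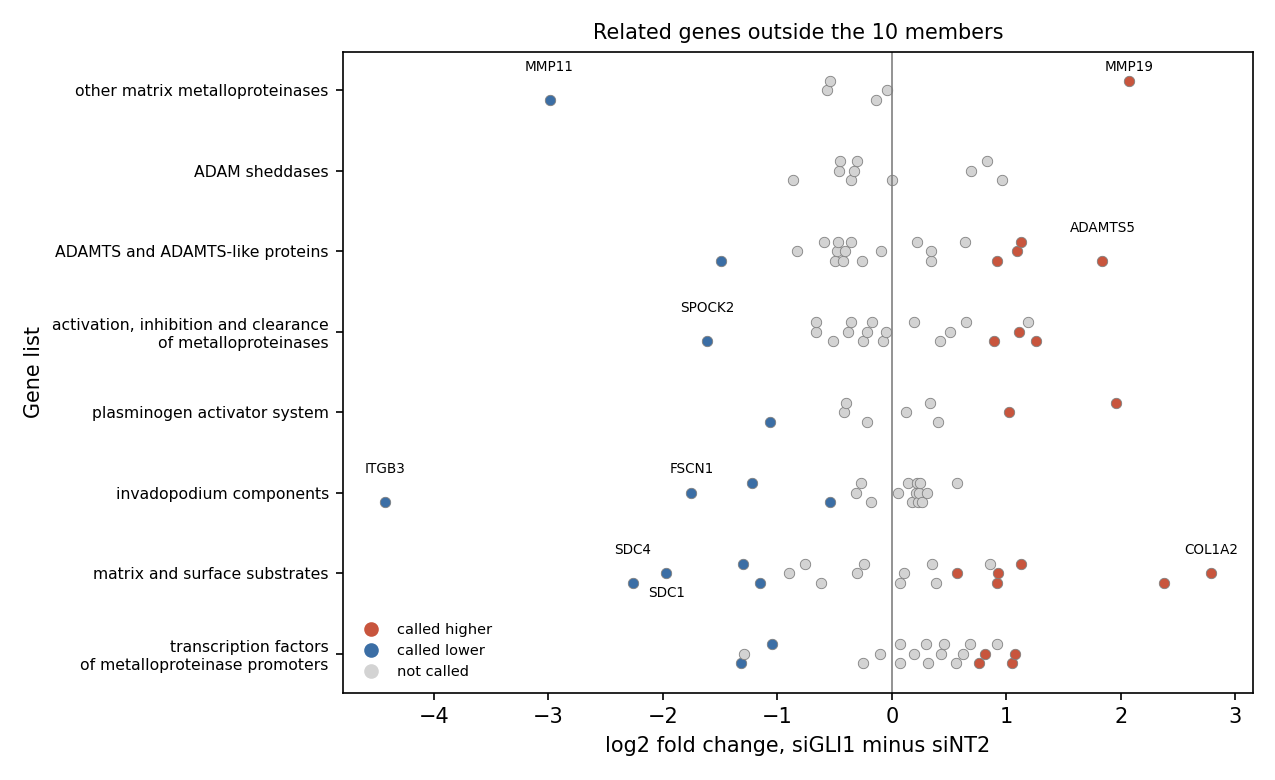
Log2 fold changes (siGLI1 minus siNT2, horizontal) of the tested genes in 8 lists of related genes (vertical), in red where called higher, blue where called lower and grey where not called, offset within a list for legibility. MMP11 at -2.99 and MMP19 at 2.07 lie apart from the other 4 metalloproteinases of their list, and ITGB3 at -4.43 is the lowest value shown.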

How the data were processed

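Messenger RNA libraries of RMS13 cells (3 siNT2, 3 siGLI1) were sequenced by the authors. Per the submitters' processing notes the build was hg19 and the tools were DESeq2 2.11.40.6, featureCounts with Subread 1.6.4, Bowtie2 2.3.3.1, Trim Galore 0.4.5 and bcl2fastq. Annotation and strand setting: not given in the sources used here. The authors deposited a signal table, each value being a gene's read count over its library's size factor. In every library 100.0% of values were whole multiples of 1 read within 0.01 reads, so whole reads were recovered. No 2 replicates agreed within sampling noise (chi-square per degree of freedom at least 10.3).

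Symbols for 23696 of 25702 genes (92.2%) came from RefSeq (GRCh38.p14), and lengths, overlaps, UTRs and GC content (92.4% of tested genes) from GENCODE release 29; hg19 coordinates were not used. Length is the union of basic exons. The test was limma 3.58.1 (R 4.3.3) with a mean-variance trend on log2(value + 1), genes with a mean of 10 or more, group as the only term, two-sided. Alternatives were pseudocounts of 0.5 and 8, no filter and a mean of 50, TMM factors, edgeR 4.0.16 and DESeq2 1.42.0 on recovered reads, removal of a lowess trend on GC content, a replicate block and leaving out each library. Scripts were tested on simulated data. Tables and figures used Python 3.11.15 with pandas 2.3.3 and matplotlib 3.10.9.

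Members, lists and tests were chosen with earlier results of these data known. Named genes were the 10 members, GLI1, up to 4 called genes with the smallest p in each of 8 lists, and the 5 genes most correlated with MMP15; others are said to be outside this rule, and 2 genes it names are not reported here. The lists were other metalloproteinases, ADAM, ADAMTS, activation and clearance, plasminogen activators, invadopodia, substrates and promoter factors, besides 5 marker lists.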

Additional observations from a re-analysis of the deposited data

How the results depend on the processing

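MMP15, MMP11 and MMP19 kept their direction and call in all 16 alternatives, and GLI1 likewise. Genes called numbered 2376 in the fit reported, 2382 with edgeR, 3279 with DESeq2, 4763 with the GC trend removed, and 641 to 3267 when 1 library was left out (641 without siGLI1 replicate 2, 863, 1560 and 1321 without siNT2 replicate 1, 2 and 3, and 1506 without siGLI1 replicate 1). The deviations of same-numbered libraries correlated at 0.494, -0.109 and -0.614 for replicates 1, 2 and 3. These values cannot decide whether the libraries were paired, since each library's deviation was also rank-correlated with GC content. The descriptions of same-numbered libraries share a code whose meaning the labels do not give, so a pairing is possible. The fit reported has no pairing term. The replicate block gave 970 genes and 3743 together with the GC correction, and among the genes named it ended the calls of TIMP2, ADAMTS6, PCSK6, CD63, TSPAN12, S100A10, SH3PXD2B, FOSL1, ETV5, SNAI1 and USB1. Members called were 2 in the fit reported, 1 with the replicate block, 3 with the GC trend removed, with or without the replicate block, and 1 to 2 when 1 library was left out. With the GC trend removed, in either fit, MMP14 turned to 0.11, MMP16 to -0.052 and MMP2 to 0.0023. Without 1 library MMP14 ranged from -0.28 to 0.13 and MMP16 from -0.32 to 0.63. The cause of these turns was not tested. MMP9, TIMP4 and 11 other metalloproteinase genes stayed under the filter, and whether depth or low expression set this was not tested.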

Other observations

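Of 40 nearest tested neighbours of the members (4 for each), 4 rose, 4 fell and the other 32 were not called, against 7.21% higher and 8.0% lower over all genes tested. Of the 4 nearest to MMP14 on chromosome 14, MRPL52 (log2 fold change -0.15, adjusted p = 0.673, limma) and RBM23 (-0.03, adjusted p = 0.939, limma) were not called. SLC7A7, an amino acid transporter gene, rose from a mean of 776.9 to 1639 (log2 fold change 1.08, adjusted p = 0.0032, limma). LRP10, a receptor gene of the LDL receptor family, fell from 480.1 to 207.3 (log2 fold change -1.21, adjusted p = 0.00492, limma). Both calls held without any 1 library, and all 4 genes were named after their values were seen.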
